A study of Homo sapiens with 12 samples.

Results

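The genes described are those whose symbols name RNA methyltransferases: the METTL (methyltransferase-like), NSUN (NOL1/NOP2/Sun domain) and TRMT (tRNA methyltransferase) series with HENMT1, DIMT1, FTSJ2 and FTSJ3. Matching these symbols and leaving out names with a hyphen or a pseudogene ending gave 55 of the 50868 genes of the count table. The rule dropped 14 further names, of which 13 were named as pseudogenes and 1 as an antisense RNA. Some METTL enzymes matched by name methylate proteins instead of RNA, and METTL21EP, which the name rule kept, is annotated as a pseudogene. The family was proposed with the comparison of anticarin-beta and vehicle already known, in which HENMT1 was among the steepest falls. The members were thus in part selected on those fold changes, and that comparison is given for them as a description. Its p-values are not printed, and a member named as called, higher or lower there, with every count of such members by role, motif or comparison, only sorts the members by an adjusted p under 0.05 over all genes and is no evidence about them.

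The study profiled MG63, an established human osteosarcoma cell line, by RNA-seq in 4 groups of 3 libraries. Cells grown in DMEM with fetal bovine serum received either vehicle or 1 µM anticarin-beta and were collected after 18 hours. In a separate experiment cells were transfected with Allstar control siRNA or with siRNA against CCT4, a subunit of the TRiC/CCT chaperonin for cytoskeletal proteins, with collection after 2 days. All libraries come from 1 cell line. Nothing in the labels says whether replicates were separate cultures, so the p-values reflect library-to-library spread alone, which may be technical.

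Total counts per library ran from 13393750 to 17492095. The targeted gene went against the label: CCT4 averaged 206 ± 9.18 CPM (counts scaled to library size) after CCT4 siRNA, above the 177 ± 14.4 CPM of the control siRNA group (SD, n = 3; log2 fold change 0.22 ± 0.09 SE; edgeR quasi-likelihood adjusted p = 0.129). Directions drawn from those libraries therefore rest on their label. The cells carried mesenchymal RNAs, with COL1A1 at 3780 ± 259 CPM and VIM at 2780 ± 554 CPM in vehicle. BGLAP was at 0.593 ± 0.0552 CPM there, and SPP1 and POSTN were near 0. The summed mesenchymal markers lay at 9650 to 12500 CPM in vehicle and 15800 to 16500 CPM with anticarin-beta. They lay at 5460 to 5790 CPM with control siRNA and 6730 to 6990 CPM with CCT4 siRNA. COL1A1 (3780 and 533 CPM), COL1A2 (1610 and 316) and SPARC (2160 and 729) were lower in control siRNA than in vehicle. FN1 (883 and 1760 CPM), ALPL (9.24 and 18.3) and TWIST1 (6.39 and 11.2) were higher there, so the sum does not stand for each marker. The part of these markers in the results was not tested. Summed markers of epithelial cells stayed at or under 2.29 CPM in every library. Those of endothelial cells stayed at or under 15.3 CPM, and those of leukocytes reached 86.1 CPM, most of it from CD68. Scaling mattered with anticarin-beta: over the 17717 genes tested the log2 fold change had a median of -0.06 with TMM, the scaling used throughout, and of -0.48 with library totals alone. With CCT4 siRNA these medians were 0.01 and -0.12. In bulk RNA a change in a gene's level per cell and a change in the make-up of the population cannot be told apart.

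RNA methyltransferases move a methyl group from S-adenosylmethionine onto a base or ribose of RNA. In mRNA, METTL3 and METTL14 form the core that writes N6-methyladenosine, which reader proteins bind and demethylases remove. In tRNA and rRNA, cytosolic and mitochondrial, methyl marks support folding, stability and decoding, and HENMT1 methylates the 3′ end of piRNAs, small RNAs best known from germ cells.

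Of the 55 members, 50 had enough counts to be tested. METTL11B and METTL24 had 0 counts in all 12 libraries. At 3 counts the limit is 0.172 to 0.224 CPM per library by library totals, before TMM scaling. The summed counts of METTL21C were 6 with anticarin-beta, 4 in the libraries labelled CCT4 siRNA and 0 elsewhere. METTL21EP had 2 counts, both in vehicle, and NSUN7 had at most 10 counts in any group. Per kilobase of exon, the tested members spanned 0.581 to 37.5 CPM in vehicle, with a median of 3.65. TRMT112, the activating partner of several methyltransferases, stood highest at 37.5 CPM per kilobase in vehicle. It was followed by NSUN2 at 28.3, TRMT10C at 21.0 and TRMT1 at 19.3, and METTL25 and METTL7A stood lowest at 0.581 and 0.631. With anticarin-beta TRMT1 came first, at 46.8 CPM per kilobase against 44.8 for TRMT112, which was close to it.

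With anticarin-beta, 23 of the 50 tested members were called lower at an adjusted p under 0.05 (46.0%), against 38.0% of all genes tested. Another 14 members were called higher (28.0%), against 34.9% of all genes, and 13 were not called. Since the members were proposed from this comparison, nothing is read from these shares. The median log2 fold change of the members was -0.32. Changes of over 2-fold were called for 18 members, against 45.7% of all genes. The rises reached a log2 fold change of 1.28, and the falls reached the loss of all reads for HENMT1. With library totals alone, 6 members were called higher and 26 lower, against 4292 and 8959 of all 17717 genes tested.

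**Figure D1:**
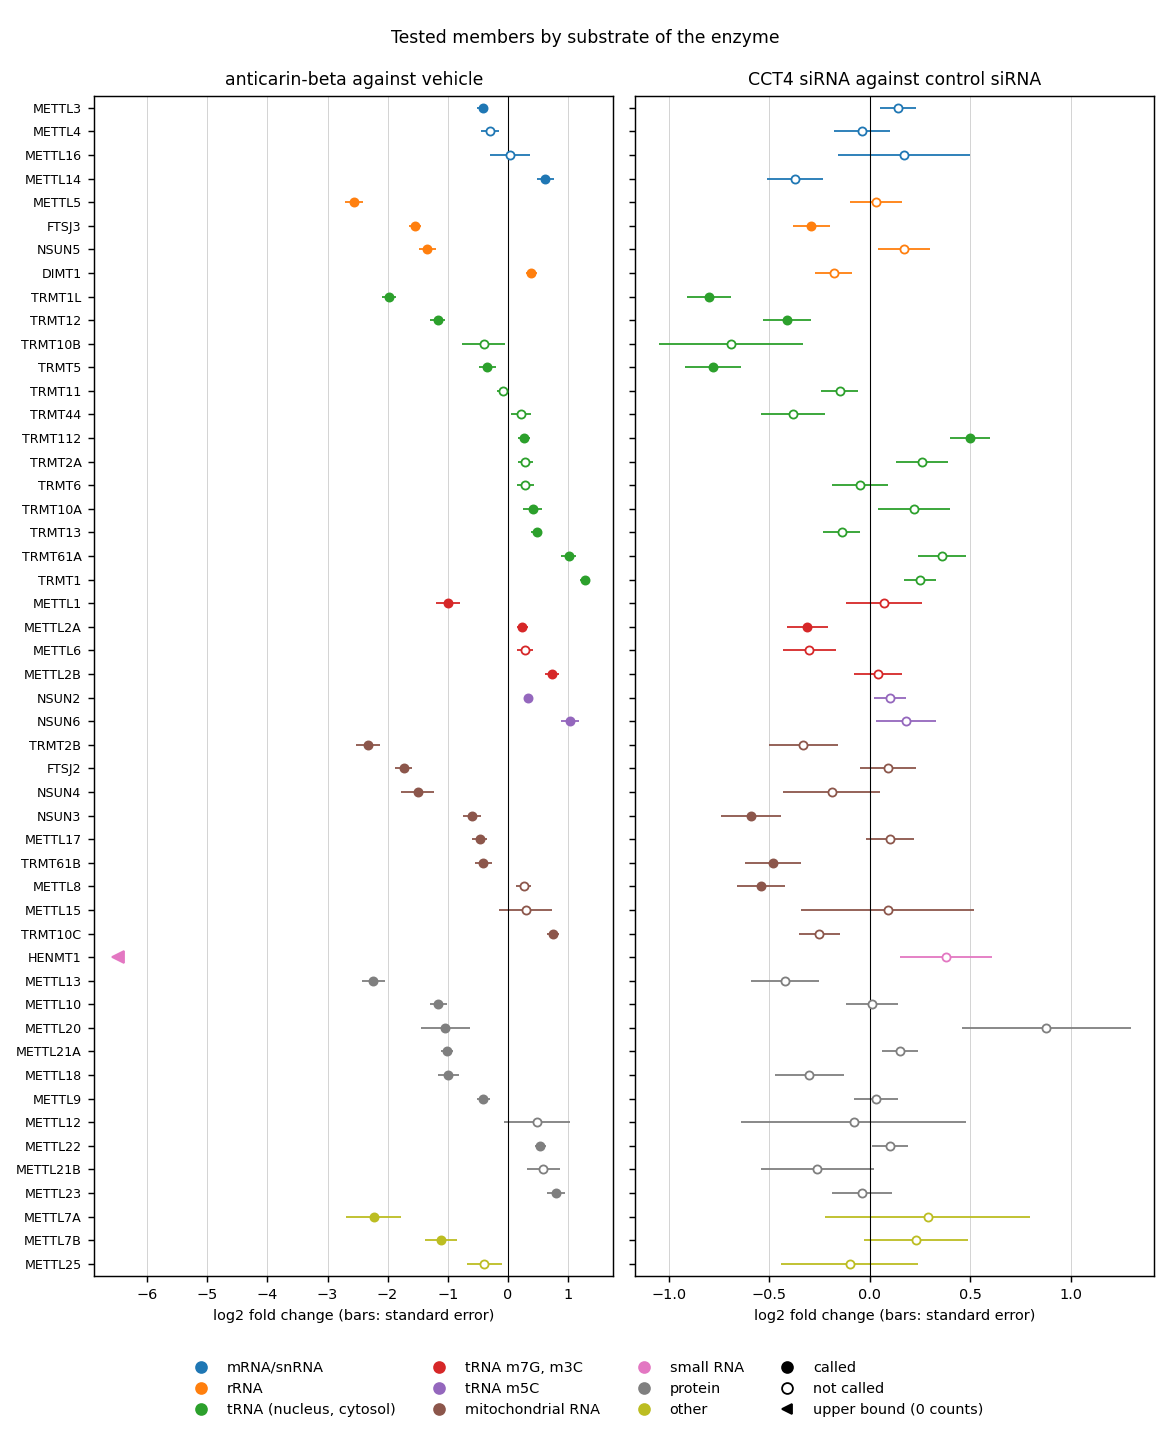
Log2 fold change (x axis) of the 50 tested members (y axis) with anticarin-beta (left) and in the libraries labelled CCT4 siRNA (right), coloured by the substrate of the enzyme, with standard errors from the fit. Filled points were called at an adjusted p under 0.05, and the triangle marks HENMT1, with 0 counts, at its bound. The x axes differ: with anticarin-beta the other members span -2.56 to 1.28, and with CCT4 siRNA all members lie between -0.80 and 0.88.

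HENMT1 (chr1:108648290-108661526, hg38), the small RNA 2′-O-methyltransferase, was read at 9.48, 7.90 and 5.99 CPM in vehicle and had 0 counts in each of the 3 anticarin-beta libraries. Against 421 counts in vehicle, the limit of 3 counts over the treated group makes it at least 90.1-fold lower. Its level also differed between the 2 control groups, since control siRNA libraries held 1.79, 1.90 and 1.73 CPM. Those groups differ in experiment, time and transfection, which cannot be told apart here. The libraries labelled CCT4 siRNA held 2.09, 2.53 and 2.44 CPM, all above the control siRNA libraries, but the log2 fold change of 0.38 ± 0.23 was not called (adjusted p = 0.278). No exon of another annotated gene overlaps HENMT1 exons.

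Among other genes of the piRNA pathway 3 rose and 1 fell with anticarin-beta, where 73.0% of all genes tested were called. Of 13 listed, 5 had 0 counts in all libraries, among them PIWIL1, TDRD1 and MAEL, and 4 were tested. PIWIL2 (1.19 ± 0.352 CPM in vehicle, 12.8 ± 2.02 CPM with anticarin-beta), PIWIL4 and the mitochondrial nuclease PLD6 rose by log2 fold changes of 3.42, 2.77 and 3.26. TDRKH, which tethers PIWI proteins to mitochondria, fell from 9.95 ± 0.549 to 1.99 ± 0.356 CPM. Of 7 germ cell markers, DAZL, PIWIL1, TDRD1 and MAEL had 0 counts in all libraries and DDX4 had at most 1 count in any group. Their sum, made up almost wholly of PIWIL2 and PIWIL4, was 2.34 to 2.94 CPM in vehicle and 20.9 to 24.0 CPM with anticarin-beta, and its part in the HENMT1 values was not tested.

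**Figure D2:**
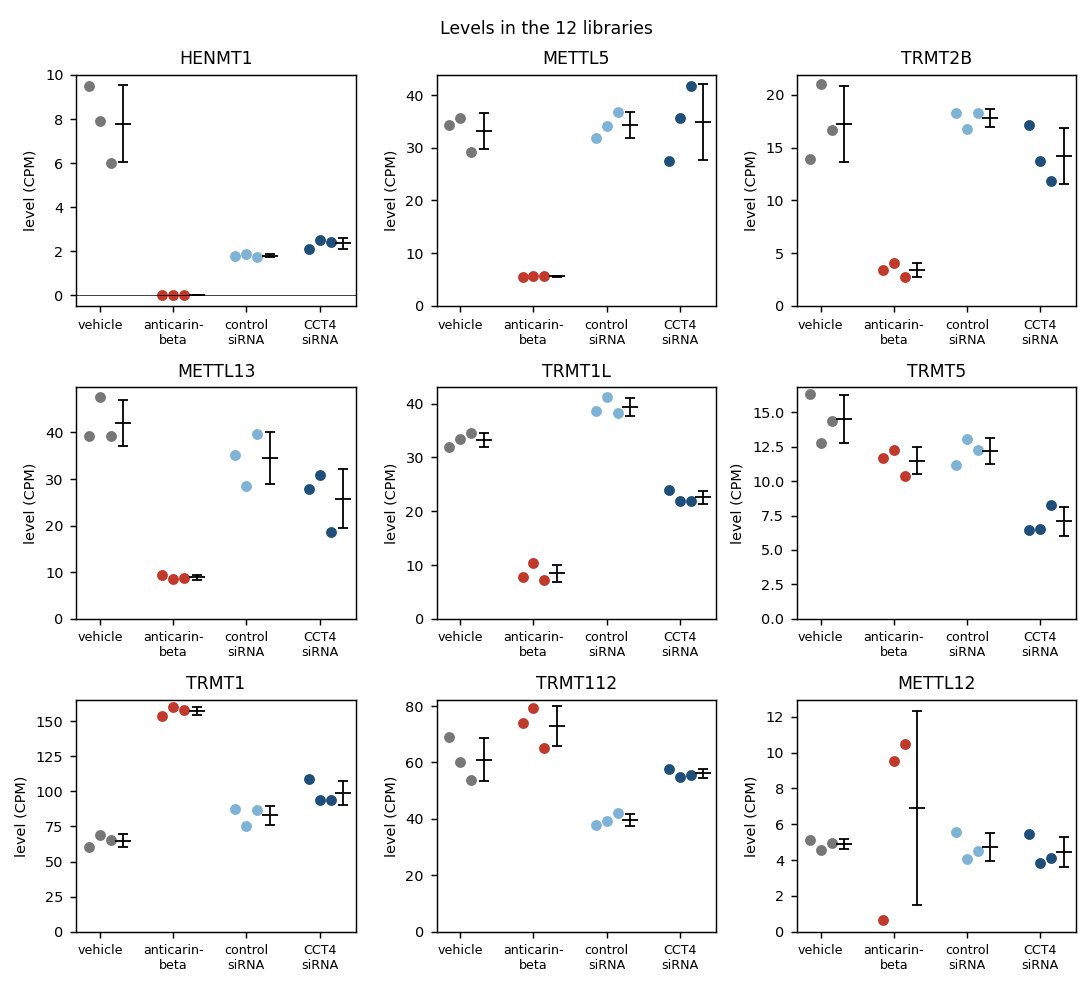
Level in CPM (y axis, linear, from 0) of 9 members in each of the 12 libraries (points) by group (x axis), with the mean and SD of each group in black. HENMT1 lies at 0 in all 3 anticarin-beta libraries, METTL5, TRMT2B, METTL13 and TRMT1L lie well below vehicle there, and TRMT1 and TRMT112 are also higher with CCT4 siRNA than with control siRNA in every library. METTL12 shows 1 anticarin-beta library at 0.671 CPM beside 9.52 and 10.5 CPM.

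The 4 enzymes of cytosolic rRNA were all called with anticarin-beta, 3 lower and 1 higher, where 73.0% of all genes tested were called. Their median log2 fold change was -1.45. METTL5 (chr2:169810081-169824931), which with TRMT112 places N6-methyladenosine on the small-subunit rRNA, was read at 34.4, 35.7 and 29.2 CPM in vehicle and at 5.53, 5.64 and 5.69 CPM with anticarin-beta. The groups lie far apart and the treated libraries differ little among themselves, for a log2 fold change of -2.56 ± 0.15. FTSJ3, a 2′-O-methyltransferase of the pre-ribosome, went from 50.2, 45.4 and 44.8 CPM to 14.3, 17.2 and 16.5 CPM (-1.55 ± 0.10). NSUN5, which makes 5-methylcytidine in large-subunit rRNA, was at 16.5 ± 1.98 CPM in vehicle and 6.50 ± 0.617 CPM with the compound (-1.34 ± 0.14). Its near-copies NSUN5P1 and NSUN5P2 had log2 fold changes of -0.94 and -1.08, and reads could be split between the 3 genes. DIMT1, the dimethyladenosine transferase of the small subunit, was higher (40.0 ± 4.26 CPM in vehicle, 52.3 ± 1.09 CPM with anticarin-beta, log2 fold change 0.39 ± 0.09), and turned to -0.03 with library totals alone.

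Among 9 enzymes and factors of mitochondrial RNA, 6 were lower with anticarin-beta, 1 was higher and 2 were not called (median log2 fold change -0.47). Of all genes tested, 38.0% were called lower and 34.9% higher. TRMT2B (chrX:101009346-101052116), the mitochondrial 5-methyluridine enzyme, was read at 13.9, 21.0 and 16.7 CPM in vehicle and at 3.44, 4.07 and 2.76 CPM with the compound (-2.33 ± 0.20). FTSJ2, also named MRM2, a 2′-O-methyltransferase of mitochondrial large-subunit rRNA, was at 26.5, 24.7 and 19.8 CPM against 6.37, 6.93 and 8.12 CPM (-1.73 ± 0.14). NSUN4, which acts on the mitochondrial small subunit with MTERF4, was at 23.0, 12.7 and 23.0 CPM against 3.86, 8.13 and 8.79 CPM (-1.50 ± 0.27). In each of these 3 genes the highest treated library lies below the lowest vehicle library. NSUN3, METTL17 and TRMT61B fell by 0.60, 0.47 and 0.41 on the log2 scale. NSUN3 shares exon sequence with DHFRL1, also named DHFR2, on the opposite strand. DHFRL1 was at 10.4 CPM in vehicle and fell by 4.76, so reads could mix if strand was not used in counting. The call of TRMT61B, whose groups overlap, was lost when vehicle library 2 or treated library 3 was left out. TRMT10C, a subunit of mitochondrial RNase P that also methylates mitochondrial tRNA, went the other way, from 43.5, 41.6 and 34.2 CPM to 61.1, 69.5 and 69.5 CPM (0.75 ± 0.10). METTL15 was not called and varied widely within groups, with 9.11, 5.67 and 21.9 CPM in vehicle.

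The stretches before the RefSeq start sites of METTL5, TRMT2B and METTL13, among the deepest falls, and of TRMT10C, a rise, are shown to let their promoter sequences be compared. Each is the longest run within 250 bases before the start that touches no GENCODE exon, in the gene's own direction (RefSeq, GRCh38.p14). Capitals mark 3 motifs on either strand. The GC box is spelled GGGCGG. The CCAAT box is spelled by its name. The ETS core is spelled CCGGAAG. METTL5 lies on the minus strand at chr2:169824932-169825155, TRMT2B on the minus strand at chrX:101052117-101052361, METTL13 on the plus strand at chr1:171781410-171781659 and TRMT10C on the plus strand at chr3:101561618-101561861.
METTL5: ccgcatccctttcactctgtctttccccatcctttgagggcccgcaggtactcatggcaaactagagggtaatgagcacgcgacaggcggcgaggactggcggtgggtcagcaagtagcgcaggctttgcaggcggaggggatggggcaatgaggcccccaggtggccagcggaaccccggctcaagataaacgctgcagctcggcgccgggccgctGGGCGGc
TRMT2B: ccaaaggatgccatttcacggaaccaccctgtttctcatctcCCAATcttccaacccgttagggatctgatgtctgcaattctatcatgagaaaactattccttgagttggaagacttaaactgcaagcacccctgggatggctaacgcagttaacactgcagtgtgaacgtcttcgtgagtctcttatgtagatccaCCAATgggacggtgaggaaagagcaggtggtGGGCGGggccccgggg
METTL13: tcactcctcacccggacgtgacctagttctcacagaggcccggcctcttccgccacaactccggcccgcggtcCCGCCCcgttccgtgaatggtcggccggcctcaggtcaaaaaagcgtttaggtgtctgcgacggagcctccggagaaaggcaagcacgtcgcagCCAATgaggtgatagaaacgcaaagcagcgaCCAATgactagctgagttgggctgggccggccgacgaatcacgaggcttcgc
TRMT10C: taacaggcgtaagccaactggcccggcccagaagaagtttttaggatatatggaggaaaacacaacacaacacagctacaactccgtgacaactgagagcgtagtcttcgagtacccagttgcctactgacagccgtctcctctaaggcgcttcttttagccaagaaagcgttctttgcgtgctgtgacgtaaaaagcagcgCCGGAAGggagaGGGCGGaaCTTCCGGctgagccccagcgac
TRMT2B and METTL13 each hold 2 CCAAT boxes and 1 GC box, METTL5 holds 1 GC box, and TRMT10C holds 1 GC box and 2 ETS cores. Over all 47 members matched to a RefSeq promoter (250 bases before to 50 after the first listed start), the GC box was in 63.8% against 44.6% of 27305 promoters, and the ETS core in 31.9% against 10.7%. The CCAAT box was in 38.3% against 35.7%. The ETS core was in 6 of 12 members called higher with anticarin-beta and 6 of 20 called lower, and the GC box in 9 of 12 and 15 of 20. Of the 11 matched members that were tested and not called, 3 held the ETS core and 5 the GC box. The E-box, CACGTG, was in 6.4% of members against 7.4% of all promoters. The NRF1 core, CGCATGCG, was in 2.1% against 2.2%. The cAMP response element, TGACGTCA, was in 4.3% against 2.0%. The AP-1 site, TGANTCA, was in 2.1% against 7.8%, and the TATA box, spelled TATAAA, in 8.5% against 12.0%. No motif searched contains another, and a match is a description of letters only.

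In the group of 13 tRNA methyltransferases of nucleus and cytosol, which includes the activating partner TRMT112, 5 were higher with anticarin-beta, 3 lower and 5 not called. The group had a median log2 fold change of 0.26. Over all genes tested, 34.9% were called higher and 38.0% lower. TRMT1 (chr19:13104902-13117567), the dimethylguanosine enzyme, had the largest rise of all members: 60.6, 69.2 and 65.2 CPM in vehicle and 154, 160 and 158 CPM with the compound (1.28 ± 0.08). Its paralog TRMT1L (chr1:185118098-185157072) moved the opposite way, from 31.9, 33.4 and 34.5 CPM to 7.80, 10.3 and 7.28 CPM (-1.98 ± 0.12). TRMT61A, the catalytic subunit of the 1-methyladenosine enzyme, was at 28.1, 21.2 and 22.2 CPM against 52.7, 46.8 and 44.6 CPM (1.01 ± 0.12). Its partner subunit TRMT6 was not called (0.29 ± 0.14). TRMT12, of the wybutosine pathway, fell by 1.17 on the log2 scale. TRMT13 was higher by 0.48 and TRMT10A by 0.41, but with library totals alone they stood at 0.06 and 0.00 and neither was called. The call of TRMT10A was kept in 12 of 22 alternatives and was lost when vehicle library 2 or 3 or any treated library was left out. TRMT5, which makes 1-methylguanosine next to the anticodon, fell by 0.34, a call kept in 11 of 22 alternatives and lost when vehicle library 1 or 3, treated library 1 or 3 or control siRNA library 3 was left out. TRMT112 was called higher by 0.26 ± 0.10 although its groups overlap (69.1, 60.1 and 53.7 CPM in vehicle; 74.0, 79.3 and 65.3 CPM with the compound), and turned to -0.16 with library totals alone. That call was kept in 13 of 22 alternatives and was lost when vehicle library 2 or 3 or treated library 1 or 2 was left out.

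The 7-methylguanosine enzyme METTL1 was read at 9.38, 13.0 and 12.2 CPM in vehicle and 4.70, 5.27 and 7.36 CPM with anticarin-beta, with no overlap (-1.0 ± 0.2). METTL1 and METTL21B overlap in opposite directions, so their reads could mix if strand was not used in counting. WDR4, which forms the enzyme with METTL1, fell by 1.25 on the log2 scale. The near-identical 3-methylcytidine enzymes METTL2A and METTL2B were both higher, by 0.24 ± 0.09 and 0.73 ± 0.12. Reads may be divided between these 2 genes, and METTL2A turned to -0.17 with library totals alone. Its call was kept in 12 of 22 alternatives and was lost when vehicle library 2 or 3 or treated library 1 or 2 was left out. DALRD3, a partner of METTL2, fell by 2.39. The 5-methylcytidine enzymes NSUN2 and NSUN6 were both higher. NSUN6 went from 7.73, 6.21 and 7.86 CPM to 13.9, 14.0 and 16.6 CPM (1.03 ± 0.15). NSUN2 went from 178, 146 and 143 CPM to 195, 196 and 201 CPM (0.34 ± 0.08), and turned to -0.08 with library totals alone.

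METTL3 and METTL14, the pair that writes N6-methyladenosine in mRNA, were called in opposite directions with anticarin-beta. METTL3, the catalytic subunit, was read at 37.7, 30.3 and 32.2 CPM in vehicle and 24.0, 24.6 and 26.1 CPM with the compound (-0.42 ± 0.09). METTL14, the RNA-binding subunit, was at 10.5, 11.8 and 10.3 CPM against 15.8, 14.5 and 19.9 CPM (0.62 ± 0.14), with 0.21 and no call when library totals alone were used. In both genes the vehicle and treated libraries do not overlap. METTL16, the enzyme of U6 snRNA, was not called and ranged from 19.3 to 38.2 CPM within vehicle alone. METTL4 was not called (-0.30 ± 0.15).

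Larger fold changes than those of METTL3 and METTL14 were read for some partners and readers of this mark. Of 8 listed partners and other N6-methyladenosine writers, 2 were higher and 3 lower with anticarin-beta, with RBM15 at 2.40 ± 0.15 and PCIF1, which acts next to the cap, at -1.74 ± 0.12. Over all genes tested, 34.9% were called higher and 38.0% lower with anticarin-beta. All 11 erasers and readers were called, 8 higher and 3 lower, with a median of 0.66. With library totals alone 6 were higher, and HNRNPA2B1 turned from 0.39 to -0.03. Both demethylases fell: FTO from 79.3 ± 9.93 to 34.9 ± 1.68 CPM and ALKBH5 from 86.3 ± 6.67 to 35.5 ± 1.06 CPM. The readers YTHDC1, IGF2BP2, IGF2BP1 and YTHDF1 were higher, by 2.58, 2.48, 1.59 and 1.45, and the reader YTHDC2 fell by 1.10. With CCT4 siRNA, 4 of the 8 partners and other writers fell, where 9.04% of all genes were called lower and 10.7% higher. WTAP, the adaptor of the pair, rose by 0.27, and was not called with library totals alone (0.14) or with upper-quartile scaling (0.25).

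**Figure D3:**
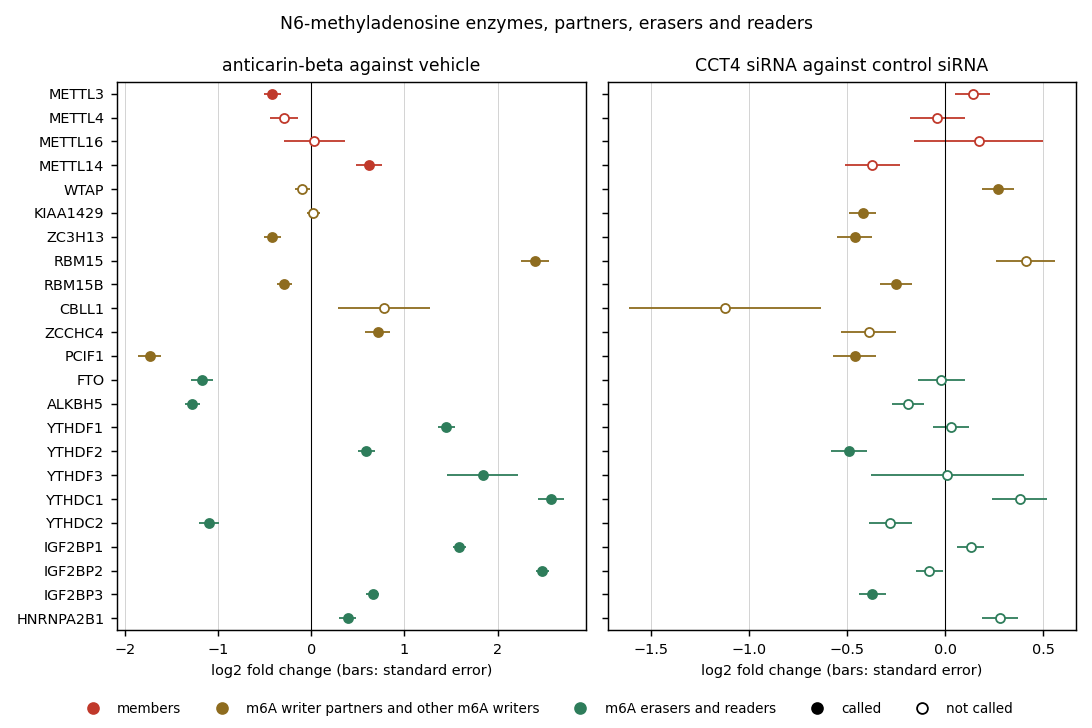
Log2 fold change with its standard error (x axis) of the 4 adenosine N6-methyltransferase members and of 19 related genes (y axis) with anticarin-beta (left) and CCT4 siRNA (right). Filled points were called. With anticarin-beta FTO and ALKBH5 lie left of 0 and 8 of the 11 erasers and readers lie right of it (HNRNPA2B1 at 0.39, and at -0.03 with library totals alone), and with CCT4 siRNA METTL3 and METTL14 are open points at 0.14 and -0.37.

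Of the 10 tested members that act on protein, 6 were lower with anticarin-beta and 2 higher (median log2 fold change -0.70). The shares over all genes tested were 38.0% lower and 34.9% higher. METTL13 (chr1:171781664-171814023), which methylates the elongation factor eEF1A, was read at 39.2, 47.7 and 39.2 CPM in vehicle and 9.48, 8.50 and 8.70 CPM with the compound (-2.24 ± 0.19). METTL10, another eEF1A enzyme, fell by 1.16 and METTL21A, which acts on HSP70 chaperones, by 1.01. METTL18 and METTL9 fell by 0.99 and 0.41. METTL20 fell by 1.04, a call kept in 16 of 22 alternatives and lost when vehicle library 2 or 3 or treated library 2 or 3 was left out. METTL23 and METTL22 were higher by 0.80 ± 0.15 and 0.54 ± 0.09, the latter at 0.12 and not called with library totals alone. METTL12 was not called: the 3 treated libraries held 8, 103 and 126 counts against 76 to 96 in vehicle. So wide a ratio within a group, 15.7-fold, was reached by 0.0874% of tested genes that averaged at least 1 CPM in the anticarin-beta libraries. Genes with 0 counts in any of these libraries were left out of that share. Without anticarin-beta library 1, which held the 8 counts, METTL12 was called, with a log2 fold change of 1.02. Of 3 tested members without an established RNA substrate, METTL7A and METTL7B fell from 2.58 ± 1.04 to 0.536 ± 0.369 CPM and from 2.61 ± 0.0701 to 1.20 ± 0.294 CPM.

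With CCT4 siRNA against control siRNA, 8 of the 50 tested members were called lower (16.0%), against 9.04% of all genes tested, and 1 was called higher (2.00%), against 10.7%. None changed over 2-fold, against 3.06% of all genes, and the median log2 fold change of the members was -0.04 beside 0.01 for all genes. These calls use edgeR's quasi-likelihood test with Benjamini-Hochberg adjustment. The called members act on tRNA (TRMT1L, TRMT5, TRMT12, METTL2A), on mitochondrial RNA (NSUN3, METTL8, TRMT61B) and on rRNA (FTSJ3). The remaining one, TRMT112, is the activating partner of several methyltransferases. Leaving out 1 control or CCT4 siRNA library at a time lowered the count of members called lower from 8 to between 3 and 5, which is 6.00% to 10.0% of them, against 5.71% to 6.78% of all genes in the same fits. TRMT1L, TRMT5 and TRMT112 were called in all 22 alternatives.

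TRMT1L was read at 38.6, 41.3 and 38.2 CPM with control siRNA and at 24.0, 21.9 and 21.9 CPM in the libraries labelled CCT4 siRNA (-0.80 ± 0.11, adjusted p = 0.000412). TRMT5 (chr14:60971451-60981358) was at 11.2, 13.1 and 12.3 CPM against 6.47, 6.51 and 8.29 CPM (-0.78 ± 0.14, adjusted p = 0.00247). The groups are apart for both genes. TRMT5 shares exon sequence with SLC38A6 on the opposite strand and with an unnamed transcript on its own strand, so its reads are less certain. TRMT112 (chr11:64316460-64318084) was the member that rose, from 37.9, 39.1 and 42.0 CPM to 57.8, 55.0 and 55.4 CPM (0.50 ± 0.10, adjusted p = 0.00471). PRDX5, whose start lies 4 bp from that of TRMT112 in the opposite direction, rose by 0.54 (adjusted p = 0.00535).

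METTL8, which makes 3-methylcytidine in mitochondrial tRNA, was at 19.5, 20.9 and 18.3 CPM with control siRNA and 12.0, 14.2 and 14.1 CPM with CCT4 siRNA (-0.54 ± 0.12, adjusted p = 0.01). It was not called with anticarin-beta (0.26 ± 0.12). NSUN3, which starts the 5-formylcytidine mark of mitochondrial methionine tRNA, was at 9.54, 8.43 and 8.89 CPM against 4.77, 5.95 and 7.07 CPM (-0.59 ± 0.15, adjusted p = 0.0181). It is not called if CCT4 siRNA replicate 1 or 2 or control siRNA replicate 1 is left out, and its exon overlap with DHFRL1 makes its reads less certain. TRMT61B (-0.48 ± 0.14), TRMT12 (-0.41 ± 0.12), METTL2A (-0.31 ± 0.10) and FTSJ3 (-0.29 ± 0.09) fell with adjusted p of 0.0318, 0.0283, 0.0382 and 0.0472, each with groups apart and each lost when single siRNA libraries were left out. TRMT1 (0.25 ± 0.08, adjusted p = 0.0517) and TRMT61A (0.36 ± 0.12, adjusted p = 0.0553) lay just outside the threshold with all libraries of both groups apart. METTL3 (0.14 ± 0.09, adjusted p = 0.338), METTL14 (-0.37 ± 0.14, adjusted p = 0.0865), METTL16 (0.17 ± 0.33, adjusted p = 0.767) and METTL5 (0.03 ± 0.13, adjusted p = 0.919) were not called. METTL20 had the largest fitted rise, 0.88 ± 0.42, at 0.705 to 2.86 CPM in control siRNA, and was not called (adjusted p = 0.173).

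The 2 comparisons share no library, and their calls were counted jointly. Both were lower for 6 members, FTSJ3, NSUN3, TRMT61B, TRMT1L, TRMT12 and TRMT5, and both were higher for TRMT112. METTL2A was higher with anticarin-beta and lower with CCT4 siRNA, and METTL8 was called with CCT4 siRNA alone. Another 29 were called with anticarin-beta alone and 12 in neither. Joint calls were not counted over all genes, of which 73.0% were called with anticarin-beta and 19.7% with CCT4 siRNA. Nothing is read from these joint counts. The difference between the 2 responses was called for 34 of the 50 members (68.0%), against 59.9% of all genes tested. It contains the anticarin-beta fold changes from which the members were proposed, so it too is a description and nothing is read from the share. Among called members that reached a group mean of 5 CPM, it was most positive for TRMT1 (1.02 ± 0.12), METTL14 (1.0 ± 0.2), TRMT10C (0.99 ± 0.14) and NSUN6 (0.85 ± 0.21). Besides HENMT1 it was most negative among them for METTL5 (-2.58 ± 0.20), TRMT2B (-2.0 ± 0.26), METTL13 (-1.82 ± 0.25) and FTSJ2 (-1.82 ± 0.20). Below that level METTL7A (-2.52 ± 0.69) and METTL20 (-1.91 ± 0.59) were also called. For NSUN3 (0.00 ± 0.22), TRMT61B (0.07 ± 0.20), TRMT5 (0.45 ± 0.20) and TRMT112 (-0.24 ± 0.14) the difference was not called. The 2 experiments differ in time, transfection and agent, so such a difference is one of experiments and not of agent alone.

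**Figure D4:**
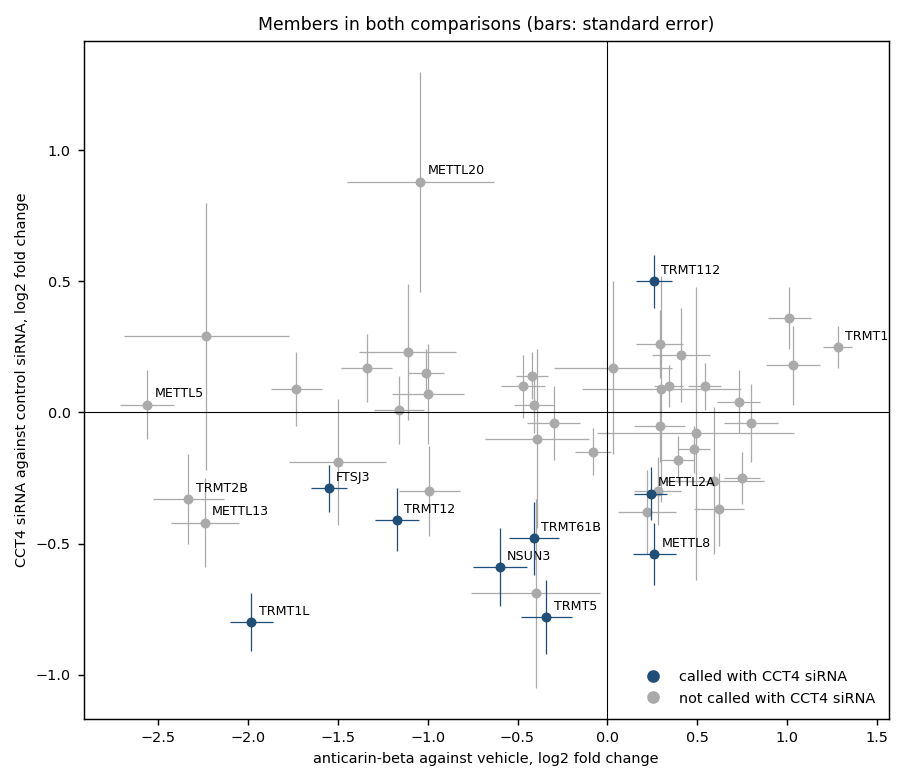
Log2 fold change with anticarin-beta (x axis) and with CCT4 siRNA (y axis) of 49 tested members, with standard errors. HENMT1 is left out because it has 0 counts with anticarin-beta. Dark points were called with CCT4 siRNA: 6 of these 9 lie lower left, TRMT112 upper right, and METTL2A and METTL8 lower right.

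Many members start next to another gene. For 19, an opposite-strand protein-coding gene lay head to head, with its start within 1000 bp of their own. Non-coding neighbours were not counted. In 11 of the 18 pairs with a tested neighbour both genes were called with anticarin-beta, 8 in the same direction and 3 in opposite directions. As 73.0% of all genes tested were called there and pairs over all genes were not counted, nothing is read from these counts. The opposite pairs were as follows. TRMT1L and SWT1 start 8 bp apart, and with anticarin-beta TRMT1L fell by 1.98 while SWT1 rose by 1.46. NSUN2 and SRD5A1 start 52 bp apart, with log2 fold changes of 0.34 and -1.79. DIMT1 and IPO11, 33 bp apart, had 0.39 and -0.81. Of the 8 pairs in the same direction, FTSJ2 at -1.73 lies 24 bp from NUDT1 at -0.98, and METTL23 at 0.80 lies 31 bp from JMJD6 at 1.49.

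Other enzymes of RNA modification outside the family were followed as lists, to be read beside the 38.0% of all genes called lower and 34.9% called higher with anticarin-beta. Among 23 other tRNA modification enzymes 12 fell and 5 rose with anticarin-beta (median -0.40), led by the mitochondrial uridine enzyme GTPBP3 (-4.03 ± 0.23), TARBP1 (-3.04 ± 0.11) and the wybutosine enzyme LCMT2 (-2.41 ± 0.18). Of 13 pseudouridine synthases 8 fell and 3 rose (median -0.96), and PUS3 fell in both comparisons (-3.26 ± 0.22 with anticarin-beta, -1.09 ± 0.17 with CCT4 siRNA, adjusted p = 0.00126 in the latter). Of 7 genes listed as other rRNA methyltransferases 3 fell and 3 rose (median 0.06). MRM1 was at -2.76 ± 0.16, TFB1M at -1.6 ± 0.14 and TFB2M at 2.10 ± 0.11. Of 7 cap enzymes 4 fell and 3 rose (median -0.24), among them the cap guanine methyltransferase RNMT at 2.12 ± 0.24, and TGS1 fell with CCT4 siRNA (-0.78 ± 0.09, adjusted p = 0.000213). Of 10 partner proteins of tRNA and rRNA methyltransferases 5 fell and 3 rose (median -0.65). Of 13 genes listed around the supply, recycling or other use of the methyl donor, 6 fell and 4 rose (median -0.25). Methionine synthase MTR was at -2.44 ± 0.09. AMD1, listed for use and not for supply, was at 2.74 ± 0.09. MAT2A, which makes S-adenosylmethionine, was at 524 ± 55.3 CPM in vehicle and 524 ± 4.95 CPM with anticarin-beta, and fell with CCT4 siRNA from 375 ± 6.66 to 274 ± 7.72 CPM (adjusted p = 0.0011).

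**Figure D5:**
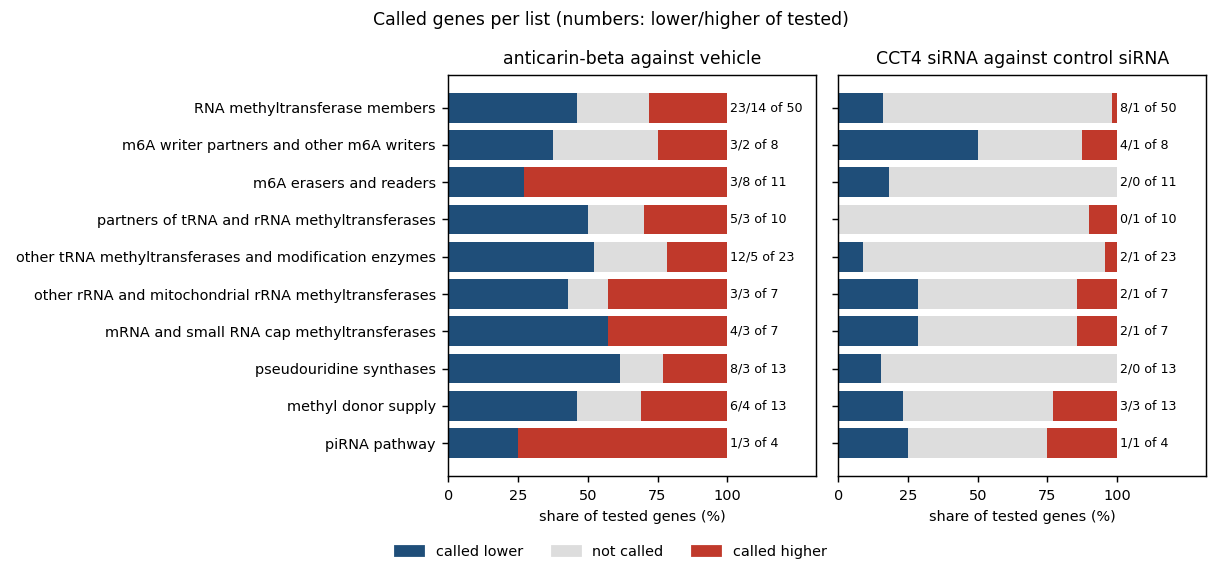
Share of tested genes (x axis, percent) called lower, not called and called higher for the 50 tested members and 9 lists of related genes (y axis) with anticarin-beta (left) and CCT4 siRNA (right), with numbers lower/higher of tested at the right of each bar. With anticarin-beta 23 members are lower and 14 higher, and all 11 erasers and readers are called, where 73.0% of all genes tested are called. With CCT4 siRNA 41 of the 50 members are not called. With library totals alone rises are fewer, 6 among the 50 members and 4292 among all 17717 genes tested.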

How the data were processed

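The authors deposited raw read counts per gene for 12 RNA-seq libraries, not normalized and not pooled over replicates. Libraries came from a stranded TruSeq kit, per the labels' protocols. STAR 2.5.2a, featureCounts 1.5.0 and Subread with the hg38 build were used, per the submitters' processing notes. The annotation release, the strand setting and the handling of multi-mapped reads are not stated in these sources. Members that overlap another gene's exons (10 on the same strand, 23 on the opposite strand) or have near-copies are therefore less certain. Those with overlap on the opposite strand include METTL5, FTSJ3, METTL3, METTL8, NSUN3 and TRMT112. Positions, exon overlaps and exon lengths come from GENCODE release 29, which held 98.5% of the identifiers. Promoters are from RefSeq (GRCh38.p14), matched by symbol for 47 members.

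Counts were tested with edgeR 4.0.16 in R 4.3.3 by its two-sided quasi-likelihood test, with TMM scaling, filterByExpr over 4 groups, 1 mean per group over all 12 libraries and 8 residual degrees of freedom. P-values were adjusted by Benjamini-Hochberg over 17717 genes, with 0.05 as the threshold for a call. Each standard error is the fold change over the root of F, and log2 fold changes carry a prior count of 0.125. CPM values are scaled by TMM, and levels between genes are per kilobase of exon. A group with 0 counts is given as a bound at 3 counts. Floors cover counting error only, and those of single libraries use library totals without TMM. Replicates of a group differed beyond sampling noise (chi-square per degree of freedom 9.36 to 30.0), so each counted as 1 sample. The script was tested on simulated data.

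Members, lists and naming rules were chosen with earlier results of these data known. Named members were 11 central ones, the 8 largest falls and rises with anticarin-beta at 5 CPM or more, every member called with CCT4 siRNA and the 4 largest differences each way. Related genes were up to 4 per list by smallest p. Others, such as METTL12, the demethylases, YTHDC2, WTAP, MAT2A and the neighbours, were chosen after their values were seen. Alternatives were RLE, upper-quartile and no composition scaling, 2 other filters, DESeq2 1.42.0, limma-voom (limma 3.58.1), a replicate block, each experiment alone, an adjusted p under 0.01 and each library left out.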

Additional observations from a re-analysis of the deposited data

How the results depend on the processing

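The counts of members called lower with anticarin-beta (20 to 26) and of members whose responses differ (27 to 36) stayed within 1.5 times of the reported values under every alternative that gave a value. Library totals alone gave 6 members higher with anticarin-beta, against 4292 of all 17717 genes tested. They gave 14 members lower with CCT4 siRNA (28%), against 15.8% of all genes. The member medians were then -0.74 and -0.17. With anticarin-beta NSUN2 (-0.08), TRMT112 (-0.16), DIMT1 (-0.03) and METTL2A (-0.17) turned, and TRMT10A stood at 0.00. Members higher with CCT4 siRNA numbered 2 with at least 1 CPM in 3 libraries, 3 with DESeq2, 2 with limma-voom and 2 with each experiment alone. Over all genes 1914 of 16520 were higher in the first of these fits. The others gave 1926, 1993 and 2019 of 17717. Members lower with CCT4 siRNA numbered 4 with no filter (7.55%, against 3.78% of all genes). At an adjusted p under 0.01 they numbered 2 (4%, against 3.82%). With the replicate block 3 were lower (6%), against 5.93% of all genes. Same-numbered libraries did not deviate together (correlations from -0.03 to 0.03). That gave no sign of pairing by number but cannot show that none was used. With each library left out in turn, 11 to 18 members were higher and 20 to 24 lower with anticarin-beta, 1 to 3 higher and 3 to 8 lower with CCT4 siRNA, and the medians ran from -0.37 to -0.16 and from -0.07 to 0.00. Over all 17717 genes these fits called 5788 to 6173 higher and 6501 to 6727 lower with anticarin-beta. With CCT4 siRNA they called 1200 to 2227 higher and 1011 to 1824 lower. The member median of -0.16 came without anticarin-beta replicate 1. Where a group was left with 2 libraries, the spread was pooled over all groups. Of the 37 members called with anticarin-beta, 26 were called under all 22 alternatives, and of the 9 called with CCT4 siRNA, 3. The causes were not tested. At 3 counts the depth limits single levels to 0.172 to 0.224 CPM by library totals, before TMM scaling. The bound for HENMT1 rests on 3 counts over the whole treated group after TMM scaling, 0.0865 CPM.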
